A study of Homo sapiens with 12 samples.

Results

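The 10 genes described here code for secreted matricellular and adhesive glycoproteins: FN1, VTN, TNC, POSTN, THBS1, THBS2, SPARC, SMOC1, SMOC2 and FSTL1. They were taken by symbol from the combined table of counts, which lists 58735 gene IDs, and all 10 passed the filter on low counts that left 18415 genes for testing. SMOC2 was selected on its measured counts, because its RNA rose strongly when ZZZ3 was knocked down in cells with YAP-TFE3, so its values in those libraries are given as a description with no test, and the other 9 genes are its relatives among matrix glycoproteins. RNA-Seq had been performed on SW872 cells, a human liposarcoma line, made to express the fusion protein TAZ-CAMTA1 (TC) or YAP-TFE3 (YT) from a retrovirus. Each line then carried a stable lentiviral hairpin that was non-targeting (shNT), against YEATS2 (shYEATS2) or against ZZZ3 (shZZZ3). YEATS2 and ZZZ3 are subunits of the ATAC complex, which acetylates histones. The 6 groups are TC shNT, TC shYEATS2, TC shZZZ3, YT shNT, YT shYEATS2 and YT shZZZ3, with 2 libraries each. Every group expresses a fusion and a hairpin, the lines are drug-selected pools, and no library without a fusion was analysed here. The paper describes the libraries of a group as biological duplicates. It states separate transductions for its triplicate sequencing but not for these duplicates. The p-values thus measure only the spread between these libraries, which may not cover the variation between transductions.

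Matricellular proteins are secreted into the extracellular matrix and regulate how cells attach, migrate and respond to growth factors, more than they build its fibres. Fibronectin and vitronectin are adhesive glycoproteins that cells grip through integrins. Tenascin-C, periostin and the thrombospondins act on adhesion and on TGF-beta that is stored in the matrix, and the SPARC family (SPARC, SMOC1, SMOC2 and the related FSTL1) has a related extracellular domain, which binds calcium in SPARC, and acts on collagen assembly and growth factor signalling. Fibronectin is commonly used as a readout of matrix production in connective tissue cells.

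YAP and TAZ reach DNA through TEAD transcription factors, and TFE3 is a basic helix-loop-helix factor, so the promoters of the 10 genes (250 bases before to 50 after the RefSeq start, GRCh38.p14) were searched on both strands for the TEAD letters GGAATG, the E-box CACGTG and the AP-1 letters TGANTCA. No match overlapped another. GGAATG was present in 4 of 10 promoters, against 14% of 35116 RefSeq promoters of the same length. CACGTG was present in 0 of 10, against 7.26%, and TGANTCA in 1 of 10, POSTN, against 7.71%. A match is a description of letters, not a binding site. By ChIP-Seq the paper found both fusions mostly at distal intergenic sequences and less often close to start sites. Distal sequences were not searched here. The stretches with the TEAD letters are given here because they are the stretches of these promoters that the fusions' known partner could read, with the TEAD letters in capitals, 5′ to 3′ on the strand of the gene. They lie at chr17:28370394-28370423 (minus strand, VTN, 104 bases before the RefSeq start, which lies 2.78 kb inside the gene as GENCODE 44 draws it), chr5:151686915-151686944 (minus strand, SPARC, 17 bases before), chr15:39581021-39581050 (plus strand, THBS1, 46 bases before) and chr6:169253920-169253961 (minus strand, THBS2, with matches 103 and 91 bases before).
VTN: cccagtgttccaGGAATGtgacctttgctg
SPARC: taaacccctccaCATTCCcgcggtccttca
THBS1: gaggaatccccaGGAATGcgagcgcccctt
THBS2: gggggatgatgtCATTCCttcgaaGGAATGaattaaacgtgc

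SMOC1 and SMOC2 were both highest in YT shZZZ3, and their sequences upstream of the start are shown whole so that the windows of these paralogs can be compared. They are the 250 bases before the RefSeq start, at chr14:69879166-69879415 (plus strand) for SMOC1 and chr6:168440934-168441183 (plus strand) for SMOC2, in lower case throughout because neither holds any of the 3 motifs. Their GC content was 65.6% and 75.2%. The RefSeq start of SMOC1 lies 25.3 kb inside the gene as GENCODE 44 draws it, and that of SMOC2 lies 33 bases inside.
SMOC1: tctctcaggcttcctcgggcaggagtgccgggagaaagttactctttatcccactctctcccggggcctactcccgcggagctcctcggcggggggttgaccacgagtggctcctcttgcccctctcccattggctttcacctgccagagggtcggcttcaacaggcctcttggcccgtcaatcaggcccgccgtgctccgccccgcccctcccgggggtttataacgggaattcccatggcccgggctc
SMOC2: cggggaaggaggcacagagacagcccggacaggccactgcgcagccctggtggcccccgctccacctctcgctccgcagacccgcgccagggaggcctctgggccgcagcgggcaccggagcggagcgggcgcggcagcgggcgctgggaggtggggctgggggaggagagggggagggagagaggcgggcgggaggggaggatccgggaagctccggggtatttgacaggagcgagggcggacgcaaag

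The libraries held from 17451893 to 29294805 counts. YEATS2 fell in shYEATS2, to 45.5 and 35.1 CPM (counts relative to the library size, scaled by TMM) in TC against 113 and 123 in TC shNT, and to 33.9 and 38.5 in YT against 115 and 117 in YT shNT (edgeR adjusted p = 0.0138 and 1.04e-04). ZZZ3 was at 21.9 and 22.7 CPM in TC shZZZ3 against 25.6 and 60.4 in TC shNT, which did not pass the test (adjusted p = 0.45). It fell in YT shZZZ3, to 12.6 and 29.6 CPM against 71.2 and 49.1 (adjusted p = 0.0453), a call that was lost without YT shNT replicate 1, YT shNT replicate 2 or YT shZZZ3 replicate 1, with adjusted p up to 0.296. ZZZ3 was also lower in YT shYEATS2, at 31.4 and 30.7 CPM, below both YT shNT libraries. Its log2 fold change there was -0.95, which did not pass the test (edgeR adjusted p = 0.13, unadjusted p = 0.0433). Mesenchymal markers, of which 5 of 5 were tested, summed to between 1598 and 3242 CPM in every library. Of 5 adipocyte markers ADIPOQ and FABP4 were under 1 CPM everywhere, and of 3 leukocyte markers PTPRC and CD3E were.

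Among themselves the 10 genes spanned a wide range of expression, read here as CPM per kilobase of annotated exon so that genes of different length can be set side by side. SPARC, a collagen-binding protein, was at 480 to 854 CPM per kb over the 12 libraries, and FN1, fibronectin, was at 150 to 612. TNC was at 49.1 to 237 CPM per kb and FSTL1 at 37.8 to 82. These 4 genes overlapped in range with their neighbours in the order, and all their libraries lay above all libraries of the other 6 genes. THBS2 (6.2 to 24.6 CPM per kb), THBS1 (3.52 to 21.7), POSTN (1.62 to 20.3) and VTN (1.53 to 5.61) followed with overlapping ranges. SMOC1 (0.164 to 5.11 CPM per kb) and SMOC2 (0 to 1.99) were lowest and had the widest ranges relative to their level. Exon lengths are the union of all annotated exons, which understates genes with many alternative exons such as FN1 (17.2 kb).

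**Figure D1:**
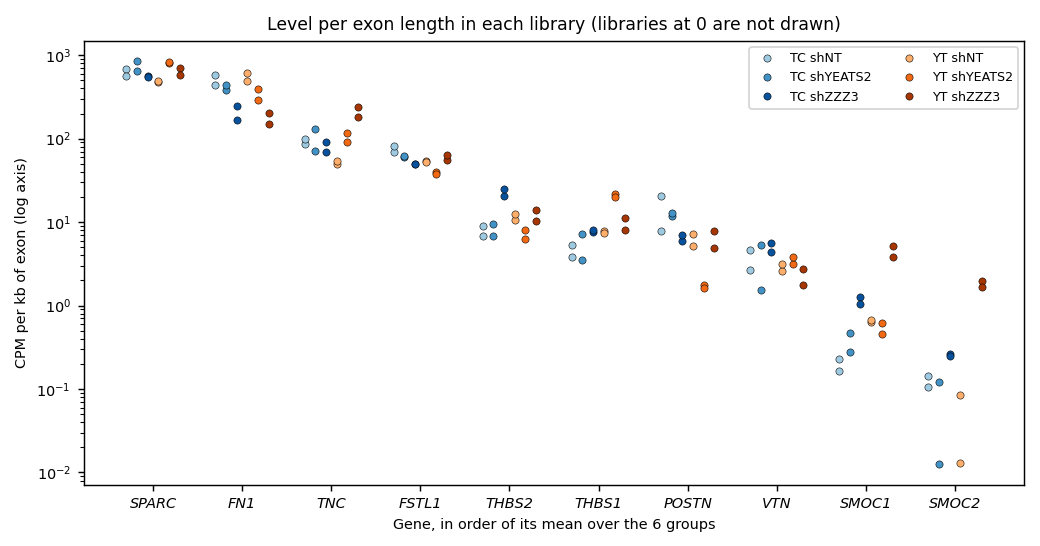
CPM per kilobase of annotated exon (log axis) for each of the 10 genes, with 1 point per library coloured by group. SPARC, FN1, TNC and FSTL1 lie between 37.8 and 854, and SMOC1 and SMOC2 lie at or below 5.11, with the YT shZZZ3 points standing above the other groups for both. Libraries with 0 counts, both of YT shYEATS2 for SMOC2, are not drawn.

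With the ZZZ3 hairpin there was less fibronectin RNA and more SMOC1 RNA in both lines, although ZZZ3 RNA itself passed the test only in the YT line, while tenascin-C rose in the YT line and thrombospondin-2 in the TC line. With the YEATS2 hairpin there was more TNC, SPARC and THBS1 RNA and less POSTN RNA in the YT line, and in the TC line none of the genes passed the test. Each gene was tested against shNT of its own line, with the model fitted to all genes and called at an edgeR adjusted p under 0.05. Each SE was back-calculated as the size of the log2 fold change over the square root of its F statistic. It is approximate, above all at low counts. Comparisons within a line share their shNT libraries. Fits that leave out a library leave its group without a replicate. In TC shZZZ3, YT shYEATS2 and YT shZZZ3 each such fit called fewer of all genes. A call lost in such a fit thus need not mean that it rests on that library. SMOC2 was tested only within the TC line, so counts are out of 10 in TC and out of 9 elsewhere.

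In TC shYEATS2, 0 of 10 genes rose and 0 fell, where 0.0326% of all genes were called higher and 0.0109% lower. At an unadjusted p under 0.05 there was 1, SMOC1, and DESeq2 called 0. In TC shZZZ3, 2 of 10 rose (SMOC1, THBS2) and 1 fell (FN1), where 0.934% of all genes were called higher and 0.592% lower. In YT shYEATS2, 3 of 9 rose (TNC, SPARC, THBS1) and 1 fell (POSTN), beside 9.61% higher and 11.1% lower among all genes. In YT shZZZ3, 2 of 9 rose (TNC, SMOC1) and 1 fell (FN1), beside 4.4% higher and 5.62% lower. Between the lines under the control hairpin, 1 of 9 (SMOC1) had more RNA in YT and 0 had less, beside 5.58% and 3.65% of all genes. The effect of shYEATS2 differed between the lines for 0 of 9 genes (9.37% of all genes in either direction), with 5 at an unadjusted p under 0.05 and 1 called by DESeq2. The effect of shZZZ3 differed for 2 of 9 genes (TNC, THBS2), beside 4.32% of all genes. The median log2 fold change of the genes tested was -0.02 in TC shYEATS2, 0.14 in TC shZZZ3, -0.26 in YT shYEATS2 and 0.15 in YT shZZZ3, while that of all genes was between -0.01 and 0.01. The genes thus moved in both directions, and the counts of 1 to 4 genes are small.

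**Figure D2:**
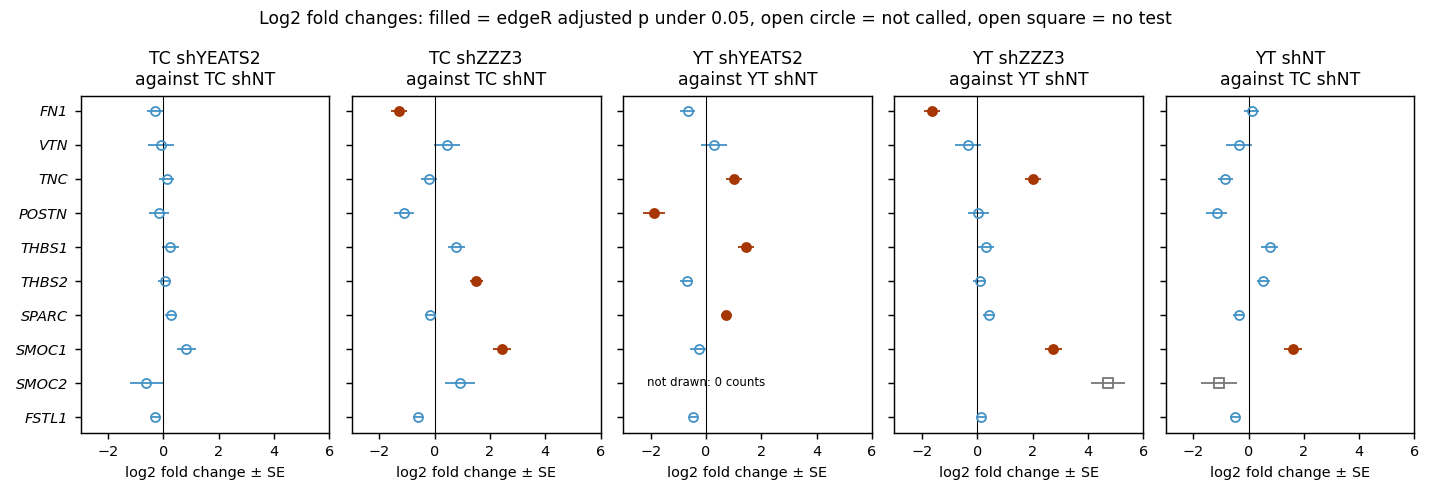
Log2 fold change ± SE from the edgeR fit for the 10 genes in the 4 knock-down comparisons and in YT shNT against TC shNT. The SE was back-calculated from the F statistic and is approximate. Filled points passed the test, open circles did not, and open squares (SMOC2) were not tested. SMOC1 lies at 2.43 in TC shZZZ3 and 2.75 in YT shZZZ3, FN1 at -1.29 and -1.63, and TNC at -0.21 and 2.01.

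FN1 (chr2:215360440-215436073, minus strand, GRCh38; this and the gene positions that follow are from GENCODE 44) codes for fibronectin, the adhesive glycoprotein that cells assemble into fibrils through integrin alpha5 beta1. TC cells held FN1 at 7527 and 10006 CPM with shNT, 6607 and 7504 with shYEATS2, and 2913 and 4264 with shZZZ3. YT cells held FN1 at 8337 and 10540 CPM with shNT, 5061 and 6839 with shYEATS2, and 2577 and 3522 with shZZZ3. The 4 shZZZ3 libraries were the lowest of the 12, and those of either line did not overlap the shNT libraries of that line. FN1 fell 3.1-fold in YT shZZZ3, from 9438 ± 1558 to 3049 ± 668 CPM (SD, n = 2; log2 fold change -1.63 ± 0.282 SE, edgeR adjusted p = 0.00461), and the call was lost without YT shNT replicate 2 (adjusted p = 0.0608). It fell 2.44-fold in TC shZZZ3 (log2 fold change -1.29 ± 0.279 SE, edgeR adjusted p = 0.0465). That call was near the threshold and was lost without TC shNT replicate 2, TC shZZZ3 replicate 1 or TC shZZZ3 replicate 2, with adjusted p up to 0.496, with library totals in place of TMM (0.0714) and when only the groups compared entered the fit (0.135). The effects in the lines differed by -0.34 on the log2 scale, which did not pass the test (adjusted p = 0.748). In YT shYEATS2 FN1 had a log2 fold change of -0.67 (adjusted p = 0.11). That change passed with a term for the replicate number in the model (replicate block, edgeR adjusted p = 0.0166). Between the lines under shNT FN1 differed by 0.11 (adjusted p = 0.852).

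VTN (chr17:28367284-28373091, minus strand) codes for vitronectin, a glycoprotein of plasma and matrix that binds integrins and the plasminogen activator inhibitor. TC cells held VTN at 8.85 and 5.06 CPM with shNT, 10.1 and 2.91 with shYEATS2, and 10.7 and 8.39 with shZZZ3. YT cells held VTN at 4.96 and 5.92 CPM with shNT, 5.95 and 7.33 with shYEATS2, and 5.24 and 3.38 with shZZZ3. All neighbouring groups overlapped when the groups were put in order, and the libraries of TC shYEATS2 spanned nearly the whole range of the 12. VTN passed the test in none of the 7 comparisons, with edgeR adjusted p from 0.643 to 1. The gene overlaps SARM1 on the opposite strand, a gene at 36.8 to 85.6 CPM that rose in YT shYEATS2 (log2 fold change 1.07, adjusted p = 0.00971). The use of strand in the counting is not stated, so reads of VTN and SARM1 cannot be told apart with certainty.

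**Figure D3:**
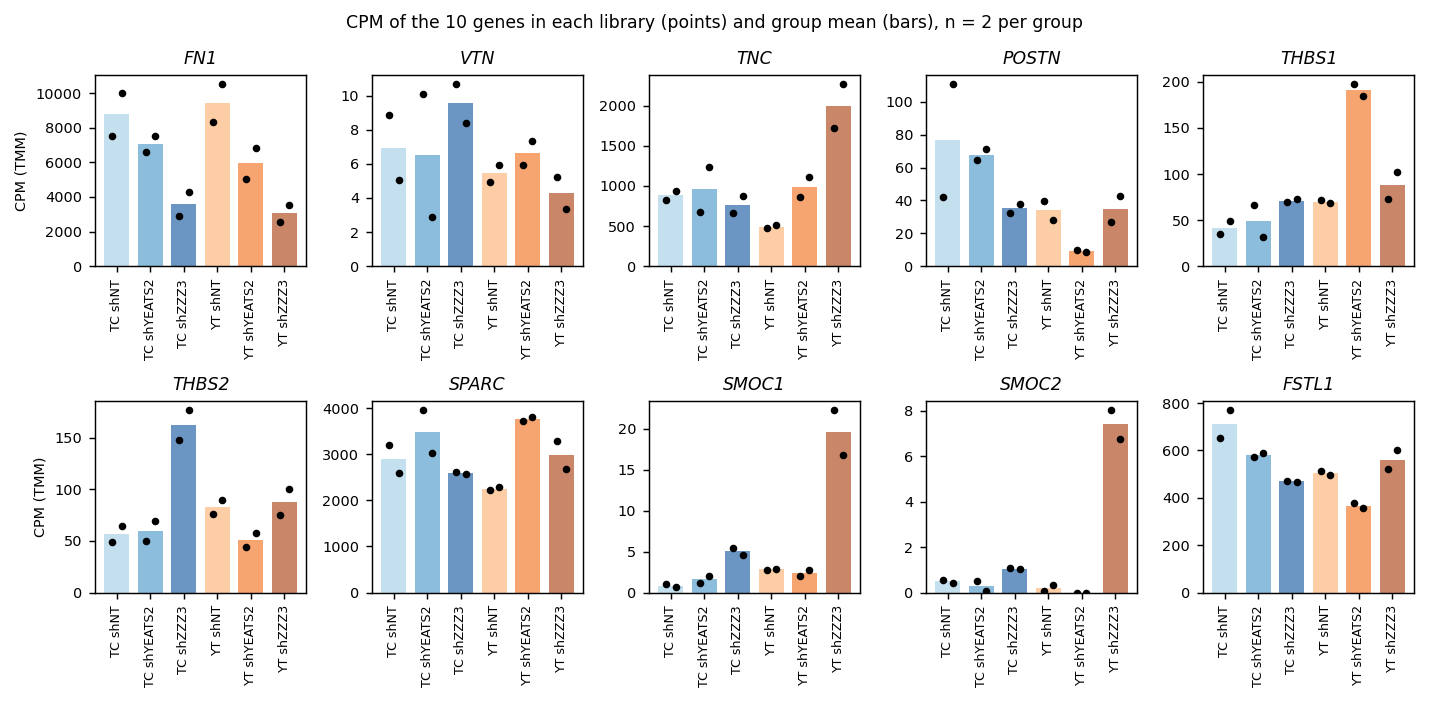
CPM of each of the 10 genes on its own linear axis, with points for the 2 libraries of each group and bars for the group mean. FN1 is lowest in the shZZZ3 groups of both lines, SMOC1 and SMOC2 are highest in YT shZZZ3, THBS1 is highest in YT shYEATS2 and THBS2 is highest in TC shZZZ3. The POSTN libraries of TC shNT lie far apart, at 42.2 and 111.

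TNC (chr9:115019575-115118207, minus strand) codes for tenascin-C, a hexameric protein of wound and tumour stroma that modulates adhesion to fibronectin. TC cells held TNC at 828 and 943 CPM with shNT, 680 and 1237 with shYEATS2, and 660 and 874 with shZZZ3. YT cells held TNC at 470 and 519 CPM with shNT, 866 and 1112 with shYEATS2, and 1725 and 2274 with shZZZ3. YT shZZZ3 held the highest libraries and YT shNT the lowest, and in the TC line the groups overlapped. TNC rose 4.04-fold in YT shZZZ3, from 495 ± 34.5 to 2000 ± 388 CPM (SD, n = 2; log2 fold change 2.01 ± 0.292 SE, edgeR adjusted p = 0.00177), and it stayed called without any 1 of the 4 libraries compared. In TC shZZZ3, where ZZZ3 RNA did not pass the test, TNC had a log2 fold change of -0.21 (adjusted p = 0.907). Whether unequal knock-down played a part in the difference between the lines was not tested. For TNC this difference was 2.22 ± 0.403 SE (edgeR adjusted p = 0.0117). That difference was not called without TC shZZZ3 replicate 1, YT shNT replicate 1 or YT shNT replicate 2, with adjusted p up to 0.0738. TNC rose 2-fold in YT shYEATS2, to 989 ± 174 CPM (SD, n = 2; SE of the log2 fold change 0.284, edgeR adjusted p = 0.029), a call that was lost without any 1 of the 4 libraries (adjusted p from 0.067 to 0.191), with library totals in place of TMM (0.0513) and with a GC correction (0.0554). Under the control hairpin the log2 difference, YT against TC, was -0.84 and did not pass the test (adjusted p = 0.0926). It passed with DESeq2 (0.0425) and in edgeR with the replicate block (0.0172).

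POSTN (chr13:37562583-37598844, minus strand) codes for periostin, a fasciclin-domain protein that binds collagen and tenascin-C. TC cells held POSTN at 42.2 and 111 CPM with shNT, 64.6 and 71.1 with shYEATS2, and 32.6 and 38.1 with shZZZ3. YT cells held POSTN at 39.8 and 28.3 CPM with shNT, 9.57 and 8.83 with shYEATS2, and 27.1 and 42.9 with shZZZ3. The YT shYEATS2 libraries were the lowest of the 12 and stood apart from all others. POSTN fell 3.7-fold in YT shYEATS2, from 34.1 ± 8.14 to 9.2 ± 0.529 CPM (SD, n = 2; log2 fold change -1.88 ± 0.393 SE, edgeR adjusted p = 0.00661). The call was lost without YT shNT replicate 1, YT shYEATS2 replicate 1 or YT shYEATS2 replicate 2, with adjusted p up to 0.0755. In TC shYEATS2 its log2 fold change was -0.17, and the difference between the lines, -1.71 ± 0.535 SE, did not pass the test (edgeR adjusted p = 0.072; DESeq2 0.0202). Its change in TC shZZZ3, -1.11 on the log2 scale, did not pass (adjusted p = 0.249), and it ran from -0.28 without TC shNT replicate 2 to -1.66 without TC shNT replicate 1, where it passed (0.0226).

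THBS1 (chr15:39581079-39599466, plus strand) codes for thrombospondin-1, a trimer that binds CD36 and CD47 and can activate latent TGF-beta. TC cells held THBS1 at 34.5 and 48.5 CPM with shNT, 66.5 and 32.2 with shYEATS2, and 69.3 and 72.7 with shZZZ3. YT cells held THBS1 at 71.4 and 68.7 CPM with shNT, 198 and 185 with shYEATS2, and 73.3 and 102 with shZZZ3. The YT shYEATS2 libraries were the highest and did not overlap any other group. THBS1 rose 2.74-fold in YT shYEATS2, from 70.1 ± 2.0 to 192 ± 9.72 CPM (SD, n = 2; log2 fold change 1.45 ± 0.303 SE, edgeR adjusted p = 0.00656), and the call was lost without YT shNT replicate 1, YT shNT replicate 2 or YT shYEATS2 replicate 1, with adjusted p up to 0.0624. The difference of this effect between the lines was 1.20 ± 0.423 SE and did not pass the test (edgeR adjusted p = 0.109).

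THBS2 (chr6:169215780-169254050, minus strand) codes for thrombospondin-2, a relative that regulates collagen fibrils and matrix proteases. TC cells held THBS2 at 49.2 and 64.8 CPM with shNT, 49.5 and 68.9 with shYEATS2, and 148 and 177 with shZZZ3. YT cells held THBS2 at 76.2 and 89.5 CPM with shNT, 44.6 and 57.5 with shYEATS2, and 74.8 and 100 with shZZZ3. TC shZZZ3 stood above all other libraries, and in the YT line shZZZ3 overlapped shNT. THBS2 rose 2.85-fold in TC shZZZ3, from 57 ± 11.1 to 163 ± 20.7 CPM (SD, n = 2; log2 fold change 1.51 ± 0.244 SE, edgeR adjusted p = 0.0113). The call was lost without TC shNT replicate 1, TC shZZZ3 replicate 1 or TC shZZZ3 replicate 2 (adjusted p up to 0.129) and when only the groups compared entered the fit (0.0538). In YT shZZZ3 its log2 fold change was 0.08. ZZZ3 RNA passed the test only in the YT line, and whether unequal knock-down played a part was not tested. For THBS2 the lines differed by -1.43 ± 0.339 SE (edgeR adjusted p = 0.037). This difference was not called in 6 of 8 fits that left out 1 library, those without TC shNT replicate 1 and without either library of TC shZZZ3, either of YT shNT or YT shZZZ3 replicate 1 (adjusted p up to 0.21). It was not called with library totals (0.0862) or with only the groups compared (0.066) either. In YT shYEATS2 its log2 fold change was -0.70 (edgeR adjusted p = 0.0612, DESeq2 0.0483, edgeR with the replicate block 0.00655).

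SPARC (chr5:151661096-151686975, minus strand) codes for osteonectin, a calcium- and collagen-binding protein. TC cells held SPARC at 3202 and 2589 CPM with shNT, 3963 and 3021 with shYEATS2, and 2616 and 2570 with shZZZ3. YT cells held SPARC at 2227 and 2282 CPM with shNT, 3725 and 3802 with shYEATS2, and 3294 and 2692 with shZZZ3. YT shNT was lowest and its libraries lay close together, while YT shYEATS2 overlapped TC shYEATS2 at the top. SPARC rose 1.67-fold in YT shYEATS2, from 2254 ± 39.2 to 3763 ± 54.3 CPM (SD, n = 2; log2 fold change 0.74 ± 0.209 SE, edgeR adjusted p = 0.0278). The call was lost without any 1 of the 4 libraries, with log2 fold changes from 0.72 to 0.77 and adjusted p from 0.0962 to 0.148.

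SMOC1 (chr14:69854131-70032366, plus strand) codes for a basement membrane relative of SPARC that is known to restrain BMP signalling. TC cells held SMOC1 at 0.992 and 0.717 CPM with shNT (26 and 15 counts), 1.2 and 2.06 with shYEATS2, and 5.48 and 4.6 with shZZZ3 (135 and 86 counts). YT cells held SMOC1 at 2.75 and 2.93 CPM with shNT (52 and 51 counts), 2 and 2.74 with shYEATS2, and 22.3 and 16.8 with shZZZ3 (614 and 398 counts). YT shZZZ3 was highest and TC shZZZ3 next, and neither overlapped another group. SMOC1 rose 6.9-fold in YT shZZZ3, from 2.84 ± 0.133 to 19.6 ± 3.9 CPM (SD, n = 2; log2 fold change 2.75 ± 0.309 SE, edgeR adjusted p = 5.74e-04), and stayed called without any 1 of the 4 libraries. It rose 5.9-fold in TC shZZZ3 (log2 fold change 2.43 ± 0.327 SE, edgeR adjusted p = 0.0041), which was lost without TC shZZZ3 replicate 1 (0.0503). The effects in the lines differed by 0.31 on the log2 scale (back-calculated SE 0.606), which did not pass the test (edgeR adjusted p = 0.866). Under the control hairpin SMOC1 was 3.32-fold higher in YT than in TC (log2 fold change 1.62 ± 0.331 SE, edgeR adjusted p = 0.011). That call was lost without YT shNT replicate 1 or YT shNT replicate 2 (adjusted p up to 0.0854). For its other RNA-Seq the study collected CAMTA1-containing lines before confluence and the rest after it, and if this held here, the fusion and the culture density cannot be told apart. RPL7AP6, a pseudogene on the opposite strand within SMOC1, was at 3.62 to 11.3 CPM and had a log2 fold change of 0.86 in YT shZZZ3 (adjusted p = 0.134) and of -1.17 in YT shNT against TC shNT (adjusted p = 0.0493), opposite in sign to that of SMOC1.

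SMOC2 (chr6:168441151-168673445, plus strand) codes for the closest relative of SMOC1, a secreted protein of matrix and wounds. TC cells held SMOC2 at 15 and 9 counts with shNT, 14 and 1 with shYEATS2, and 26 and 19 with shZZZ3. YT cells held SMOC2 at 1 and 6 counts with shNT, 0 and 0 with shYEATS2, and 221 and 160 with shZZZ3. The YT shZZZ3 libraries, at 8.04 and 6.77 CPM, stood apart from the other 10, which were at or below 1.06. As this rise selected the gene, it is described without a test or an interval. The counts summed over the libraries, 381 against 7, gave a ratio of 38.7 after scaling for depth, with no correction for the selection. The fitted log2 fold change was 4.73 and ran from 4.13 to 5.76 when 1 library was left out. At this depth 3 counts amount to 0.125 and 0.155 CPM in the YT shYEATS2 libraries, so the 0 counts there allow up to those levels, and no fold is given. In TC shZZZ3, which did not select the gene, the log2 change of SMOC2 was 0.92 ± 0.548 SE (edgeR adjusted p = 0.654), with 1.06 and 1.02 CPM against 0.572 and 0.43. SMOC2 and THBS2 lie 542 kb apart on chromosome 6. The nearest tested gene on the other side of SMOC2, KIF25, lies 396 kb away, with a log2 fold change of 1.14 in YT shZZZ3 (adjusted p = 0.0507) and of 1.34 in YT shYEATS2 (adjusted p = 0.0154), where SMOC2 was at 0. The nearest on the side of THBS2, THBS2-AS1, had a log2 fold change of -0.44 in YT shZZZ3 (adjusted p = 0.507).

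FSTL1 (chr3:120392293-120451016, minus strand) codes for follistatin-like 1, a SPARC-family glycoprotein that binds BMP and TGF-beta family proteins. TC cells held FSTL1 at 651 and 771 CPM with shNT, 571 and 591 with shYEATS2, and 473 and 466 with shZZZ3. YT cells held FSTL1 at 513 and 497 CPM with shNT, 378 and 356 with shYEATS2, and 520 and 600 with shZZZ3. YT shYEATS2 was lowest and TC shNT highest, and the groups between them lay close together. FSTL1 passed edgeR's test in none of the comparisons. Its log2 fold changes were -0.60 in TC shZZZ3 (edgeR adjusted p = 0.138; DESeq2 0.0233) and -0.46 in YT shYEATS2 (edgeR adjusted p = 0.074; DESeq2 0.0431). They were -0.49 in YT shNT against TC shNT (edgeR adjusted p = 0.0951; DESeq2 0.0367) and 0.75 for the shZZZ3 difference between the lines (edgeR adjusted p = 0.115; DESeq2 0.0322).

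The cultures, all of the SW872 line, also differed in summed markers of several kinds of cell where these genes changed. The sums do not show which marker carried a difference. Summed mesenchymal markers were at 1598 to 1676 CPM in YT shNT, 3120 to 3242 in YT shYEATS2 and 2223 to 3055 in YT shZZZ3. Summed endothelial markers, of which 4 of 4 were tested, were at 34.5 to 36.8 CPM in YT shNT, 29.4 to 31.6 in YT shYEATS2 and 118 to 127 in YT shZZZ3, and summed adipocyte markers at 225 to 232, 160 to 167 and 131 to 170. In the TC line the epithelial markers KRT8, KRT18, EPCAM and CDH1 summed to 285 to 535 CPM in TC shNT and 748 to 910 in TC shZZZ3, with CDH1 under 1 CPM everywhere. Summed mesenchymal markers were at 1781 to 2247 CPM in TC shNT and 2466 to 2481 in TC shZZZ3, adipocyte markers at 183 to 223 and 122 to 128, and endothelial markers at 59.9 to 69.9 and 48.2 to 50.4. In TC shYEATS2, mesenchymal markers were at 1702 to 1853 CPM and adipocyte markers at 251 to 341. Its endothelial markers ran from 46.2 to 136 CPM and its epithelial markers from 290 to 911. The upper ends lay above the endothelial values of YT shZZZ3 and the epithelial values of TC shZZZ3. Of 3 leukocyte markers 2 were tested, and the list summed to 0.92 to 1 CPM in YT shNT and 4.29 to 4.54 in YT shYEATS2. The part of these markers in the changes of the matrix genes was not tested. In bulk RNA fewer cells of a kind and less RNA per cell cannot be told apart.

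Genes that act with these glycoproteins were read from 5 lists, and each count below stands beside the shares of all genes called in that comparison given above. Of 18 receptors tested, among them integrin chains, CD36 and CD47, 1 rose and 1 fell in YT shYEATS2 and 3 (ITGA8, ITGA9, DIP2A) rose and 0 fell in YT shZZZ3. ITGB8, a chain of an integrin that activates TGF-beta, rose from 2.93 ± 0.563 to 13.8 ± 0.368 CPM in YT shYEATS2 (log2 fold change 2.20, edgeR adjusted p = 0.0209). ITGB3, which pairs with alphaV as a vitronectin receptor, fell from 29.7 ± 1.95 to 11.4 ± 1.34 CPM (log2 fold change -1.38, adjusted p = 0.0156). Both calls were lost without any 1 of the 4 libraries. ITGA8, whose integrin binds fibronectin and tenascin-C, rose in YT shZZZ3 (log2 fold change 1.70, adjusted p = 0.00165). In the TC line 0 receptors were called with either hairpin.

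Of 15 tested relatives in the same families, 5 rose (FST, ECM1, SPOCK1, TGFBI, THBS4) and 3 fell (SPARCL1, TNN, FSTL4) in YT shYEATS2, and 3 rose (FST, THBS4, TGFBI) and 0 fell in YT shZZZ3. FST, follistatin, which binds activin, rose from 3.02 ± 0.285 CPM in YT shNT to 46.1 ± 5.76 in YT shYEATS2 (log2 fold change 3.89, edgeR adjusted p = 4.60e-05) and to 18.2 ± 0.606 in YT shZZZ3 (2.56, adjusted p = 0.00119). SPARCL1, the closest relative of SPARC, fell in YT shYEATS2 from 31.3 ± 1.18 to 4.9 ± 0.808 CPM (log2 fold change -2.66, adjusted p = 1.95e-04), where SPARC itself rose. In TC shZZZ3 2 relatives fell (SPARCL1, SPOCK1), and in TC shYEATS2 0 were called. The FST calls and the SPARCL1 call in YT shYEATS2 held without any 1 of the libraries compared, while the count of relatives called in TC shZZZ3 ran from 0 to 2.

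Of 13 tested enzymes and inhibitors that act on matrix glycoproteins, 3 rose (TGM2, LOXL3, SERPINE2) and 4 fell (LOXL1, PLAT and PLAU among them) in YT shYEATS2, and 0 rose and 3 fell (PLAT and LOX among them) in YT shZZZ3. TGM2, the transglutaminase that cross-links fibronectin, rose from 414 ± 30.3 to 828 ± 1.17 CPM in YT shYEATS2 (edgeR adjusted p = 0.0179), a call lost without any 1 of the 4 libraries. LOXL1, which cross-links elastin, fell there from 11 and 6 counts to 0 and 1 (adjusted p = 0.00968), a ratio of 20.3 with an exact 95% counting interval of 3.18 to 849, and the call was lost without YT shNT replicate 1 or YT shYEATS2 replicate 1. PLAT, the tissue plasminogen activator, fell in YT shZZZ3 from 861 ± 69.2 to 243 ± 15.7 CPM (log2 fold change -1.83, adjusted p = 0.00187). In TC shZZZ3 2 rose (PLAU among them) and 1 fell (PLAT), and in TC shYEATS2 0 were called.

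Of 13 tested genes of TGF-beta ligands, latent binding proteins and feedback, 2 rose (LTBP2, TGFBR2) and 2 fell (LRRC32, SMAD7) in YT shYEATS2, and 1 rose (LTBP2) and 1 fell (SMAD7) in YT shZZZ3. LTBP2, a latent TGF-beta binding protein of elastic fibres, rose from 44.3 ± 1.66 to 154 ± 21.4 CPM in YT shYEATS2 (log2 fold change 1.80, edgeR adjusted p = 2.07e-04) and to 99 ± 2.93 in YT shZZZ3 (1.16, adjusted p = 0.00576), the latter lost without YT shNT replicate 1 or YT shNT replicate 2. LRRC32, which holds latent TGF-beta at the cell surface, fell in YT shYEATS2 (log2 fold change -2.10, adjusted p = 4.05e-04). SMAD7, an inhibitor induced by TGF-beta, fell in YT shZZZ3 (log2 fold change -0.97, adjusted p = 0.0306), which was lost without any 1 of the 4 libraries. In the TC line 0 were called.

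Of 17 tested BMP ligands, antagonists and targets, 0 rose and 7 fell in YT shYEATS2 with a median log2 fold change of -0.73, and 2 rose (BMP4 among them) and 5 fell (CHRD, SMAD9, BMP7, SMAD6, ID2) in YT shZZZ3 with a median of -0.58. All genes had medians of -0.01 and 0.01. CHRD, chordin, a BMP antagonist, had 104 and 130 counts in YT shNT and 2 and 3 in YT shYEATS2 (edgeR adjusted p = 2.24e-05), a ratio of 55.9 with an exact 95% counting interval of 23.6 to 174. It also fell in YT shZZZ3 (log2 fold change -1.90, adjusted p = 0.00335). In TC shZZZ3 BMP6 rose and ID2 fell, and in TC shYEATS2 0 were called. The 7 that fell in YT shYEATS2 were the antagonists CHRD and NOG, the ligands BMP2, BMP6 and BMP7, and the downstream genes SMAD9 and ID2.

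**Figure D4:**
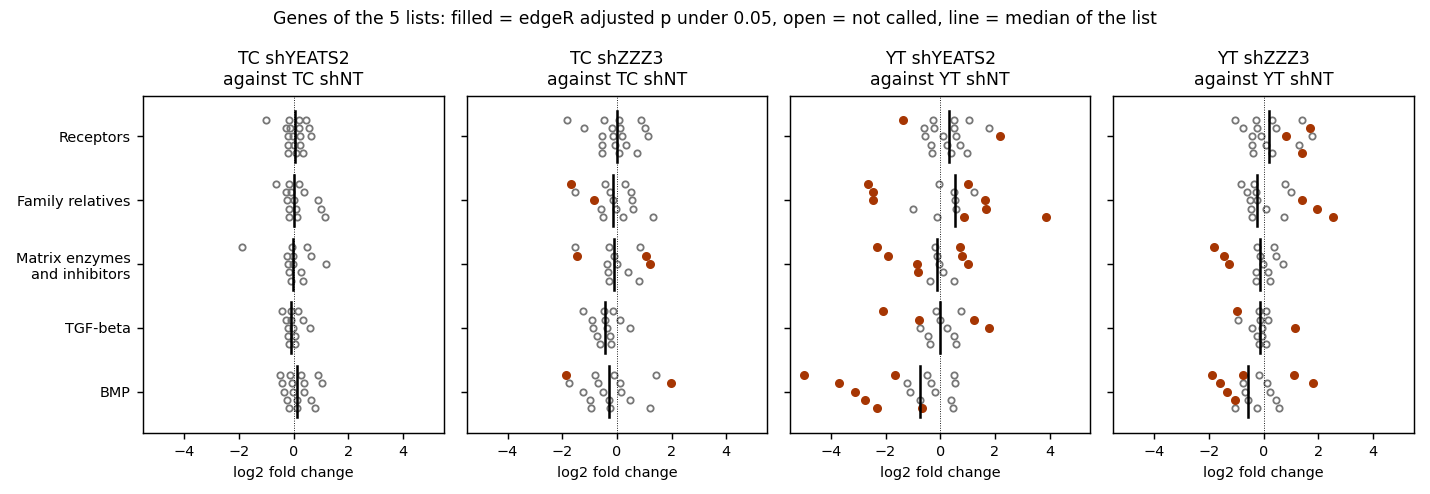
Log2 fold changes of the tested genes of the 5 lists in the 4 knock-down comparisons, with filled points for genes that passed the test, open points for those that did not, and a line at the median of each list. The BMP list is shifted to the left in both YT panels (medians -0.73 and -0.58), and TC shYEATS2 holds no filled point.

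Genes whose log2 CPM followed each glycoprotein most closely over the 12 libraries were found among 13258 genes that averaged 50 counts or more. These correlations describe the 12 libraries, which share lines, hairpins and depth. They were picked as the highest among 13258 genes, so a high r is no evidence of a relation, which was not tested. Genes that followed SMOC2 closely were APLN, the ligand apelin (r = 0.932), FAM81A (0.914), MAMLD1 (0.878) and MLKL (0.876). As SMOC2 was selected by its rise in YT shZZZ3, its correlations depend on those libraries and are a description only. VTN, which passed the test in no comparison and varied widely within TC shYEATS2, was followed by FOSL2 (r = 0.942), FAM50B (0.901), EVA1C (0.894), CYB5B (0.89) and NDUFA4 (0.889). For 7 of the others the closest gene was ZIC1 for FN1 (r = 0.915), GIMAP4 for TNC (0.931), DLC1 for POSTN (0.961), LEPR for THBS1 (0.965), PPIL1 for THBS2 (0.945), C1orf226 for SPARC (0.967) and LDB2 for FSTL1 (0.957).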

How the data were processed

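Counts per gene in 12 libraries of SW872 cells were read from the deposited tables. For its RNA-Seq of the expression constructs, the paper describes stranded poly(A) libraries, paired ends and bcbio-nextgen with HISAT2 on hg38. Whether the knock-down libraries were made in the same way is not stated. The submitters' processing notes name bcl2fastq and hg38. Salmon with tximport is described too, and the route to the deposited counts, the use of strand and the handling of multiply mapped reads are not given in the sources used here. The per-library and combined tables differed in 0 cells, and 0 columns were left unused.

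Groups came from the labels. Counts were scaled by TMM, and genes averaging 5 counts or more were kept (18415). A quasi-likelihood model over all 6 groups was fitted robustly with edgeR 4.0.16 under R 4.3.3 (prior count 2, 6 residual degrees of freedom, common biological coefficient of variation 0.205), with two-sided tests of 7 contrasts and Benjamini-Hochberg adjustment over all genes tested. Alternatives were DESeq2 (version 1.42.0), its size factors, library totals, no filter, a GC correction, a replicate block, the groups of the contrast alone, and each library left out. The alternatives for the lists and hairpin targets were added after seeing the data. On simulated data for YT shYEATS2 against YT shNT, with 18260 genes tested, 193 of 200 genes changed 4-fold were called (96.5%), with 8 unchanged genes. The changed genes were drawn from those averaging 50 counts or more, and no replicate effect was simulated. Smaller changes, and changes in genes with fewer counts, were not simulated.

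The 10 genes and the lists were chosen with earlier results of these data known. SMOC2 was not tested in any contrast that uses YT shNT or YT shZZZ3, which is stricter than first planned. Named were all 10 genes, in each list the called gene with the largest rise and fall in each YT knock-down, the genes most correlated with each of them, genes beside SMOC2 or overlapping one of the 10, and the hairpin targets. Other list genes named beside a count were chosen after their values were seen. Positions came from GENCODE 44 (99.1% of IDs found) and promoters from RefSeq. Ratios of low counts in the lists carry exact 95% intervals, which cover counting error only, and 3 counts in a library were taken as the floor. With 2 libraries per group and 17451893 to 29294805 counts each, the spread within a group is poorly known. A few genes that these rules name are not reported here.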

Additional observations from a re-analysis of the deposited data

Results flagged for a closer look

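The effect of shZZZ3 on TNC, the tenascin-C gene, differed between the lines. Its log2 fold change was 2.01 in YT and -0.21 in TC, a difference of 2.22 ± 0.403 SE (edgeR adjusted p = 0.0117, tested as an interaction). ZZZ3 RNA itself had a log2 fold change of -1.51 in YT shZZZ3 (edgeR adjusted p = 0.0453). In TC shZZZ3 it was -0.94 and did not pass the test (0.45). Whether unequal knock-down played a part was not tested. For TNC, both YT shZZZ3 libraries lay above both YT shNT libraries, while the TC groups overlapped. The difference was not called in 3 of 8 fits that left out 1 library.

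The effect of shZZZ3 on THBS2, the thrombospondin-2 gene, differed in the opposite direction. Its log2 fold change was 0.08 in YT and 1.51 in TC, a difference of -1.43 ± 0.339 SE (edgeR adjusted p = 0.037). Here too, whether unequal knock-down of ZZZ3 played a part was not tested. For THBS2, both TC shZZZ3 libraries lay above both TC shNT libraries, while the YT groups overlapped. The difference was not called in 6 of 8 fits that left out 1 library, with library totals (adjusted p = 0.0862) or with only the groups compared (0.066).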

How the results depend on the processing

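Of 738 alternative values for 62 gene values, 623 kept their direction and side of the threshold, 64 were no longer called, 45 became called, 1 without a test moved and 5 changed sign. The 5 were VTN values that were not called (with 1 library left out they ran from -1.25 to 0.51 in TC shYEATS2, -0.72 to 0.08 in YT against TC shNT and -0.22 to 1.54 in the shYEATS2 difference): 0.36 in TC shYEATS2, 0.08 in YT against TC shNT and -0.07 in the shYEATS2 difference without TC shNT replicate 1, then 0.51 and -0.22 with TC shYEATS2 replicate 2 left out. SMOC2 in YT shZZZ3 was 5.76 without YT shNT replicate 2. The cause was not tested. The number of the 10 genes called stayed at 0 in TC shYEATS2 and at 2 to 3 in YT shZZZ3 under every alternative. In TC shZZZ3 (3) it was 5 with the GC correction, 1 with only the groups compared and 0 to 3 with 1 library left out. In YT shYEATS2 (4) it was 7 with only the groups compared and 0 to 1 with 1 library left out. Between the lines under shNT (1) it was 4 with no filter, 3 with the replicate block, 3 with the GC correction, 4 with DESeq2 and 0 to 2 with 1 library left out. For the shYEATS2 difference (0) it was 3 with no filter, 3 with the replicate block, 3 with the GC correction, 1 with DESeq2 and 0 to 1 with 1 library left out. For the shZZZ3 difference (2) it was 1 with library totals, 4 with the GC correction, 1 with only the groups compared and 0 to 2 with 1 library left out. By the rule used, a correlation over 0.1 in every pair, the replicate numbers were not taken to pair the samples: over 15 pairs of groups the correlation of their deviations ran from -0.438 to 0.898, with 7 over 0.1. Among TC shNT, TC shYEATS2, TC shZZZ3 and YT shZZZ3 all 6 pairs were over it (0.18 to 0.898), and FN1, TNC and THBS2 were higher in replicate 2 in all 6 groups. The replicate block moved the count in YT shYEATS2 from 4 to 6, with FN1 (adjusted p = 0.0166 by edgeR) and THBS2 (0.00655) called as well. It also called TNC (0.0172) and THBS2 (0.0387) in YT against TC shNT, and TNC (0.05 after rounding), POSTN (0.0364) and THBS2 (0.043) for the shYEATS2 difference. YEATS2 in TC shYEATS2 (-1.57, adjusted p = 0.164 by edgeR) and ZZZ3 in YT shZZZ3 (-1.51, 0.0563) were not called with only the groups compared, nor was the latter with library totals (-1.47, 0.0864) or in 3 of 4 fits without 1 library (-2.25 to -0.97 over the 4). ZZZ3 in TC shZZZ3 was called with no filter (-0.97, 0.0114). List calls under the alternatives, given where they moved by over 1.5 times, were as follows. With library totals, receptors had 4 in YT shYEATS2 (2). With no filter, receptors had 3 in TC shZZZ3 (0), 6 in YT shYEATS2 and 7 in YT shZZZ3 (3), relatives 4 in TC shZZZ3 (2), enzymes 2 in TC shYEATS2 (0) and 5 in TC shZZZ3 (3), and TGF-beta genes 2 (0) and BMP genes 8 (2) in TC shZZZ3. With the replicate block, receptors had 1 in TC shZZZ3 and 6 in YT shYEATS2, and BMP genes 4 in TC shZZZ3. With the GC correction, receptors had 2, 7 and 7 in TC shZZZ3, YT shYEATS2 and YT shZZZ3, relatives 4 in TC shZZZ3 and 6 in YT shZZZ3 (3), enzymes 1 in TC shYEATS2 and 6 in TC shZZZ3, TGF-beta genes 3 in TC shZZZ3, 7 in YT shYEATS2 (4) and 5 in YT shZZZ3 (2), and BMP genes 7 in TC shZZZ3. With only the groups compared, YT shYEATS2 had 14 receptors, 9 TGF-beta genes and 14 BMP genes (7), TC shZZZ3 had 0 relatives and 1 enzyme, and YT shZZZ3 had 1 TGF-beta gene. With DESeq2, receptors had 3 in TC shZZZ3, 4 in YT shYEATS2 and 5 in YT shZZZ3, enzymes 1 in TC shYEATS2, and TGF-beta genes 3 and BMP genes 7 in TC shZZZ3. With 1 library left out, YT shYEATS2 had 0 to 0 receptors, 6 to 8 relatives, 2 to 2 enzymes, 3 to 3 TGF-beta genes and 5 to 6 BMP genes, YT shZZZ3 had 1 to 2, 3 to 3, 2 to 4, 0 to 2 and 2 to 5, and TC shZZZ3 had 0 to 0, 0 to 2, 0 to 1, 0 to 0 and 2 to 4. Over all genes, calls in TC shYEATS2 (8) ran from 2 to 213, in TC shZZZ3 (281) from 50 to 744, in YT shYEATS2 (3821) from 1516 to 8784, in YT shZZZ3 (1846) from 501 to 3770, in YT against TC shNT (1699) from 470 to 3370, in the shYEATS2 difference (1725) from 789 to 3532 and in the shZZZ3 difference (795) from 206 to 1975. Scalings moved the median of all genes by at most 0.06 on the log2 scale. At these depths SMOC2 and SMOC1 in the shNT libraries rest on 1 to 52 counts.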

Other observations

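Among the 10 glycoprotein genes themselves, the most negative correlations of log2 CPM over the 12 libraries were between POSTN and THBS1 (r = -0.83), between FN1 and SMOC1 (-0.80) and between THBS1 and FSTL1 (-0.80). The most positive were between POSTN and FSTL1 (0.91) and between SMOC1 and SMOC2 (0.69). They are values over libraries that share lines and hairpins, and those of SMOC2 include the YT shZZZ3 libraries that selected it.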
